A study of Mus musculus with 15 samples.

Results

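The Notch receptors Notch1, Notch2, Notch3 and Notch4, the ligands Dll4, Jag1 and Jag2, and the target genes Hes1, Hey1 and Heyl were examined in mouse gastrocnemius muscle. These 10 genes were chosen by name and matched by symbol to the Ensembl identifiers of the count table, which holds 55450 genes. All 10 passed the filter on low counts, as did 16920 genes in all. RNA sequencing had been performed on 15 female C57BL/6JN mice older than 17 months, and the labels name no transgene or deletion. Mice with at most 1 positive frailty marker formed the Low group (labelled robust) and those with at least 2 the High group (labelled frail), and the animals were placed in these groups after tissue collection. The Run groups ran on a treadmill at 13 m/min down a 22 degree decline on 2 days, with collection 24 h after the second, and the Control groups stayed sedentary in their cages. There were 4 Low Control mice (D8, D9, D11 and D98), 4 Low Run mice (D57, D61, D66 and D68), 3 High Control mice (D23, D25 and D67) and 4 High Run mice (D49, D52, D53 and D62). Each library was made from polyadenylated RNA of a powdered portion of 1 gastrocnemius, so that fibers, vessels and resident cells were sequenced together.

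Notch receptors are single-pass membrane proteins that are activated by ligands on a neighboring cell. Ligand binding leads to cleavage of the receptor by an ADAM protease and then by gamma-secretase, and the freed intracellular domain joins the DNA-binding protein RBPJ and Mastermind coactivators to switch on target genes, among them the Hes and Hey families of transcriptional repressors. In skeletal muscle the pathway is known for keeping satellite cells, the stem cells of muscle, quiescent, and in blood vessels for arterial identity, sprouting and the maturation of mural cells.

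None of the 10 genes passed a false discovery rate (FDR) of 0.1 in the 5 comparisons made with edgeR's quasi-likelihood test, and 0% of all genes tested passed it in any of them. DESeq2's Wald test also called 0 of the 10. At an unadjusted p under 0.05, edgeR counted 2 of the 10 in Low Run vs. Low Control (background over all genes 13.4%), 2 in High Run vs. High Control (background 5.18%), 2 in the Frailty × Run interaction (background 7.93%), 1 in High Control vs. Low Control (background 5.86%) and 0 in the running effect averaged over both frailty groups (background 8.63%). DESeq2, over 35419 genes, gave 2 of the 10 (background 7.46%), 2 (background 3.23%), 3 (background 4.72%), 1 (background 3.53%) and 0 (background 5.23%) in the same order. Those 35419 genes include genes that failed the filter on low counts, so this background is not over the same set as that of edgeR. The differences are therefore described below by their size, interval and spread between mice.

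Total counts per mouse ran from 19395125 to 30699216, with a median of 25926420. The 7 fiber genes used to check the tissue (Ckm, Acta1, Myh4, Myh1, Myh2, Tnnt3 and Pvalb) summed to between 107000 and 176000 CPM in each mouse (CPM, counts scaled to a common library total), and all 15 libraries carried them at high level. Mouse D9 (Low Control) and mouse D62 (High Run) stood apart on the first principal component of the deposited transformed values, which held 34.5% of the variance. They lay at -71.4 and -46.7, and the other 13 mice between -13.8 and 17.7. Values that moved in size by more than 1.5 times or lost a p under 0.05 without D9 and D62 are given below with and without them, apart from small differences of Notch3, Hes1 and Hey1 and the averaged running effect of Dll4. No label gives a sequencing batch. Each mouse is a separate animal, and the counts of same-group mice differed beyond sampling noise, with a chi-square per degree of freedom from 16.2 to 210.

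RefSeq promoter windows on GRCm38.p6 were at hand for 7 of the 10 genes, the 4 receptors and 3 ligands. Those of Notch2, Notch4, Dll4 and Jag1 are shown because these genes gave the group differences with the smallest p among receptors and ligands. Each runs 5′ to 3′ on the strand of its gene and ends at the base before the annotated gene start. Capitals mark the GC box, GGGCGG or its reverse complement CCGCCC, and the CCAAT box. Dll4 covers chr2:119325534-119325783 on the plus strand, Notch2 chr3:98013288-98013526 on the plus strand, Notch4 chr17:34564045-34564267 on the plus strand and Jag1 chr2:137116645-137116770 on the minus strand.
Dll4: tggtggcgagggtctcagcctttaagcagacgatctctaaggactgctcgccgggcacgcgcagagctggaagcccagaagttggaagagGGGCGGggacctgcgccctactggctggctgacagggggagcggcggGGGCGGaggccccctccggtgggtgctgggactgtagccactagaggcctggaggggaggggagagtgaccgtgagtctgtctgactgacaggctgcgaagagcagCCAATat
Notch2: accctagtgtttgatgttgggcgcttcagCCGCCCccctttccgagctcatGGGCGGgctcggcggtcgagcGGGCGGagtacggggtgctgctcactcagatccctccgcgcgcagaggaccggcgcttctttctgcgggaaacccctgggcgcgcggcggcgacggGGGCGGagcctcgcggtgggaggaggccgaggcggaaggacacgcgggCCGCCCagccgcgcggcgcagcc
Notch4: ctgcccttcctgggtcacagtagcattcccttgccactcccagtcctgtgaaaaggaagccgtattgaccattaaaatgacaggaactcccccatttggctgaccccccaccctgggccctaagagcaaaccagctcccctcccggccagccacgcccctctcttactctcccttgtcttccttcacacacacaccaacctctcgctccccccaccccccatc
Jag1: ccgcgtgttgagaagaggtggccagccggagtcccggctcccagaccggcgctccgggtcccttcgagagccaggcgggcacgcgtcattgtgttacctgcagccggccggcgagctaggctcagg

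Motif counts were taken on both strands of the full windows, which run from 250 bases before to 50 after the RefSeq start. The printed stretches end at the GENCODE gene start, which can lie before the RefSeq start. They are therefore shorter than 250 bases for Notch2 (239), Notch4 (223) and Jag1 (126). The GC box was present in 5 of the 7 windows (Notch1, Notch2, Notch3, Jag2 and Dll4) and in 35.7% of all 32851 windows in the table. CCAAT was present in 1 of 7, that of Dll4, and in 37.4% of all windows. TATAAA was found in 0 of 7 and in 13.6% of all windows, and GTGGGAA, the core sequence that RBPJ binds, in 0 of 7 and in 6.38% of all windows. The windows of Notch4 and Jag1 held none of these 4 motifs, which says only that those letters are not in these windows.

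On the per-length scale, read counts scaled by library total and by the length of the merged exons (RPKM), Hes1 had the highest level of the 10 genes, with 9.65 ± 2.01 RPKM over the 15 mice (mean ± SD). Jag2 followed at 7.34 ± 0.657 RPKM and Notch3 at 5.37 ± 1.08 RPKM. The level of Hes1 exceeded that of Jag2 in 13 of 15 mice, and that of Jag2 exceeded Notch3 in all 15. Notch3 exceeded Notch4, the next in order, in 14 of 15 mice. The remaining 7 genes lay between 1.34 and 2.57 RPKM. In that lower range, neighbors were not separated beyond the spread between mice for Notch4 and Dll4 (2.57 and 2.43 RPKM, Notch4 higher in 8 of 15 mice), Dll4 and Hey1 (2.14 RPKM for Hey1, Dll4 higher in 10), Hey1 and Jag1 (1.88 RPKM for Jag1, Hey1 higher in 11), or Jag1 and Heyl (1.87 RPKM for Heyl, Jag1 higher in 6). Heyl exceeded Notch2 in 12 of 15 mice and Notch2 (1.6 RPKM) exceeded Notch1 (1.34 RPKM) in 13, with mean differences of 0.264 and 0.262 RPKM and SDs of the difference of 0.482 and 0.369, so that the mean differences were smaller than their spread. Merged exons count every annotated transcript of a gene, and lengths such as the 14232 bases of Notch1 can lower its per-length level.

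**Figure D1:**
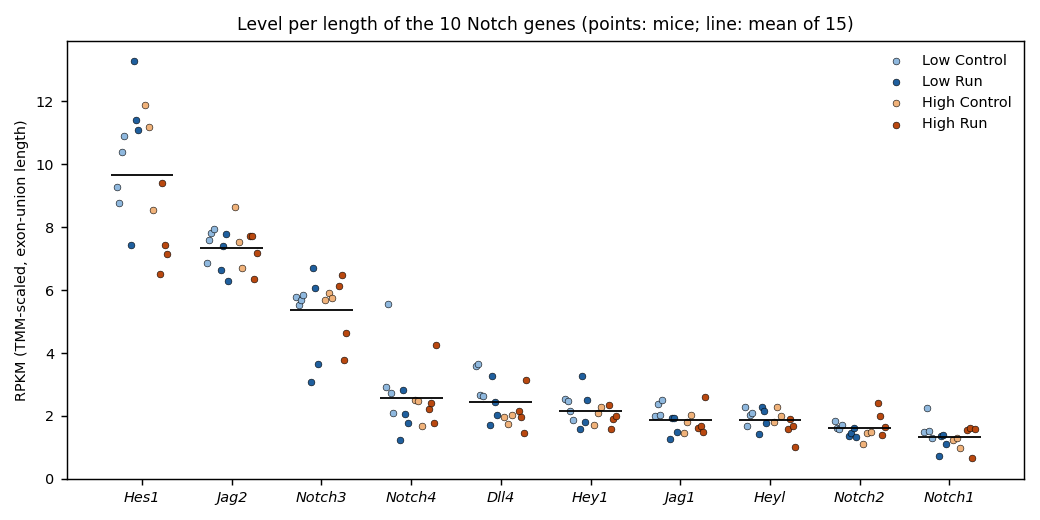
Level per length of the 10 Notch genes. The y axis is RPKM, each point is 1 mouse colored by group, and the line is the mean of 15 mice, from 9.65 RPKM for Hes1 down to 1.34 RPKM for Notch1. Hes1, Jag2 and Notch3 stand above the other 7 genes, whose points overlap.

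Notch3, the receptor of mural cells, was the most abundant receptor per length. It made up 46.9% ± 6.98 of the summed RPKM of the 4 receptors in Low Control and 50.9% ± 4.06 in Low Run (SD, n = 4 each). The share was 55.0% ± 2.68 in High Control and 47.3% ± 6.2 in High Run (n = 3 and 4). Its share was lowest in D9 (37.0%) and D62 (38.2%). Notch4, an endothelial receptor, had its highest shares in the same 2 mice, 37.1% and 35.3%, against 17.0% to 24.4% in the other 13. Notch1 held between 8.67% and 15.1% of the receptor sum and Notch2 between 10.5% and 21.1%.

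Notch1 (ENSMUSG00000026923, chromosome 2 from 26457903 to 26516663, minus strand, GRCm38) is the receptor best known for T cell fate and for arterial endothelium. Its CPM values were 21.3, 32, 21.7 and 18.6 in Low Control (D8, D9, D11, D98) and 10.3, 19.3, 19.8 and 16 in Low Run (D57, D61, D66, D68). They were 17.5, 18.7 and 13.8 in High Control (D23, D25, D67) and 22, 23, 9.37 and 22.5 in High Run (D49, D52, D53, D62). Mouse order is the same for every gene below. All pairs of groups overlapped. D9 was the highest of the 15 mice, D53 the lowest and D57 next to it, a 3.42-fold range. The log2 fold change was -0.52 (95% interval -1.09 to 0.05, FDR = 0.392) for Low Run vs. Low Control and 0.20 (-0.42 to 0.82, FDR = 0.967) for High Run vs. High Control. Without D53 the latter was 0.43, and without D9 the former was -0.34. Without D62 the High response was 0.11. Length and GC offsets gave -0.27 (FDR = 0.565) for the Low response and 0.09 (FDR = 0.969) for the High response. Limma voom with quality weights gave -0.27 (FDR = 0.705) and 0.35 (FDR = 0.485). The interaction was 0.72 (-0.12 to 1.57, FDR = 0.601), and 0.35 (FDR = 0.67) with length and GC offsets. The sedentary difference, High Control vs. Low Control, was -0.49 (-1.11 to 0.13, FDR = 0.704), and -0.31 without D9. Exons of Notch1 overlap 2 genes on the opposite strand, 0610009E02Rik over 1068 bases and Gm13568 over 414 bases, and the counting took 1 strand.

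Notch2 (ENSMUSG00000027878, chromosome 3 from 98013527 to 98150361, plus strand) is a broadly expressed receptor that acts with Notch1 and Notch3 in satellite cells. Values were 19.8, 17.5, 16.9 and 18.6 CPM in Low Control and 14.5, 15.9, 17.6 and 14.4 CPM in Low Run. High Control mice had 11.9, 15.7 and 16.1 CPM, and High Run mice 26.1, 21.6, 14.9 and 17.6 CPM. Each High Control mouse lay below each Low Control mouse, while both running comparisons overlapped, with D49 and D52 the highest of all 15. The log2 fold change was 0.46 ± 0.18 (SE, 95% interval 0.08 to 0.84, FDR = 0.956) for High Run vs. High Control. It was -0.22 ± 0.16 (-0.57 to 0.13, FDR = 0.514) for Low Run vs. Low Control and -0.32 ± 0.18 (-0.70 to 0.06, FDR = 0.704) for the sedentary comparison. The interaction, the running response of High mice minus that of Low mice, was 0.68 ± 0.24 (0.17 to 1.20, p = 0.0125, FDR = 0.600), and an exact permutation of mice within each frailty group, two-sided over 2450 arrangements, gave p = 0.0147. These were the smallest p of the 10 genes in the interaction, which ranged from 0.53 to 0.80 for Notch2 when each of the 15 mice was left out. The High running response of Notch2 was 0.30 without D49, 0.33 without D23 and 0.42 without D52, each no longer under an unadjusted p of 0.05. With offsets for gene length and GC content the interaction was 0.37 (FDR = 0.628) and no longer under an unadjusted p of 0.05, the Low running response was -0.01 and the sedentary difference -0.15. The High running response was 0.35 with these offsets (FDR = 0.730) and, in a fit to only the 2 High groups, 0.45 (FDR = 0.952) and no longer under an unadjusted p of 0.05. Exons of Notch2 overlap those of Gm42820 on the same strand over 541 bases, where reads could be assigned to either gene or to neither.

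Notch3 (ENSMUSG00000038146, chromosome 17 from 32120820 to 32166852, minus strand) marks pericytes and vascular smooth muscle and is also expressed in satellite cells. Control mice of both groups were close together, at 46.7, 44.7, 45.9 and 47.2 CPM in Low Control and 45.8, 47.9 and 46.5 CPM in High Control. Run mice were spread, at 25.0, 54.1, 49 and 29.6 CPM in Low Run and 49.5, 52.3, 30.5 and 37.4 CPM in High Run. The SD was 1.11 and 1.03 CPM in the 2 control groups and 14.3 and 10.3 CPM in the 2 run groups. D57, D68 and D53 lay lowest, and each run group had mice above and below all controls. Mean differences were small against this spread, with log2 fold changes of -0.23 (-0.69 to 0.24) in Low mice, -0.14 (-0.64 to 0.36) in High mice, 0.09 (-0.60 to 0.77) for the interaction and 0.02 (-0.48 to 0.52) between sedentary groups. The same 3 mice had the lowest median level of 615 long, GC-rich genes (GC content of at least 57.6%, exon length of at least 3833 bases), at -0.18, -0.23 and -0.194 on the log2 scale relative to the mean of all mice, against -0.05 to 0.138 in the other 12. Notch3, with a GC content of 59.6% over 8089 bases, is a gene of this kind, and the part of this feature in the spread of Notch3 was not tested.

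Notch4 (ENSMUSG00000015468, chromosome 17 from 34564268 to 34588503, plus strand) is expressed chiefly in endothelial cells. It varied most of the 10 genes, 4.56-fold between D9 and D57. Low Control mice had 23.7, 44.7, 21.9 and 16.9 CPM and Low Run mice 9.79, 22.8, 16.6 and 14.3 CPM. High Control mice had 20.2, 19.8 and 13.5 CPM and High Run mice 17.8, 19.4, 14.4 and 34.5 CPM. The 2 highest values came from D9 and D62, and the groups overlapped in every comparison. The log2 fold change for Low Run vs. Low Control was -0.75 ± 0.33 (SE, 95% interval -1.45 to -0.06, p = 0.0352, FDR = 0.359), and the exact permutation p was 0.114. Without D9 it was -0.40 and without D57 -0.58, and the unadjusted p was no longer under 0.05 without D9, D57, D66 or D68. Length and GC offsets gave -0.60 (FDR = 0.438) and limma voom with quality weights -0.36 (FDR = 0.660), both no longer under an unadjusted p of 0.05. High Run vs. High Control gave 0.27 (-0.48 to 1.01), which turned to -0.07 without D62, and the sedentary difference of -0.58 (-1.34 to 0.17) became -0.23 without D9. The interaction was 1.02 (0.00 to 2.04, FDR = 0.600), and 0.33 (FDR = 0.983) without both mice.

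**Figure D2:**
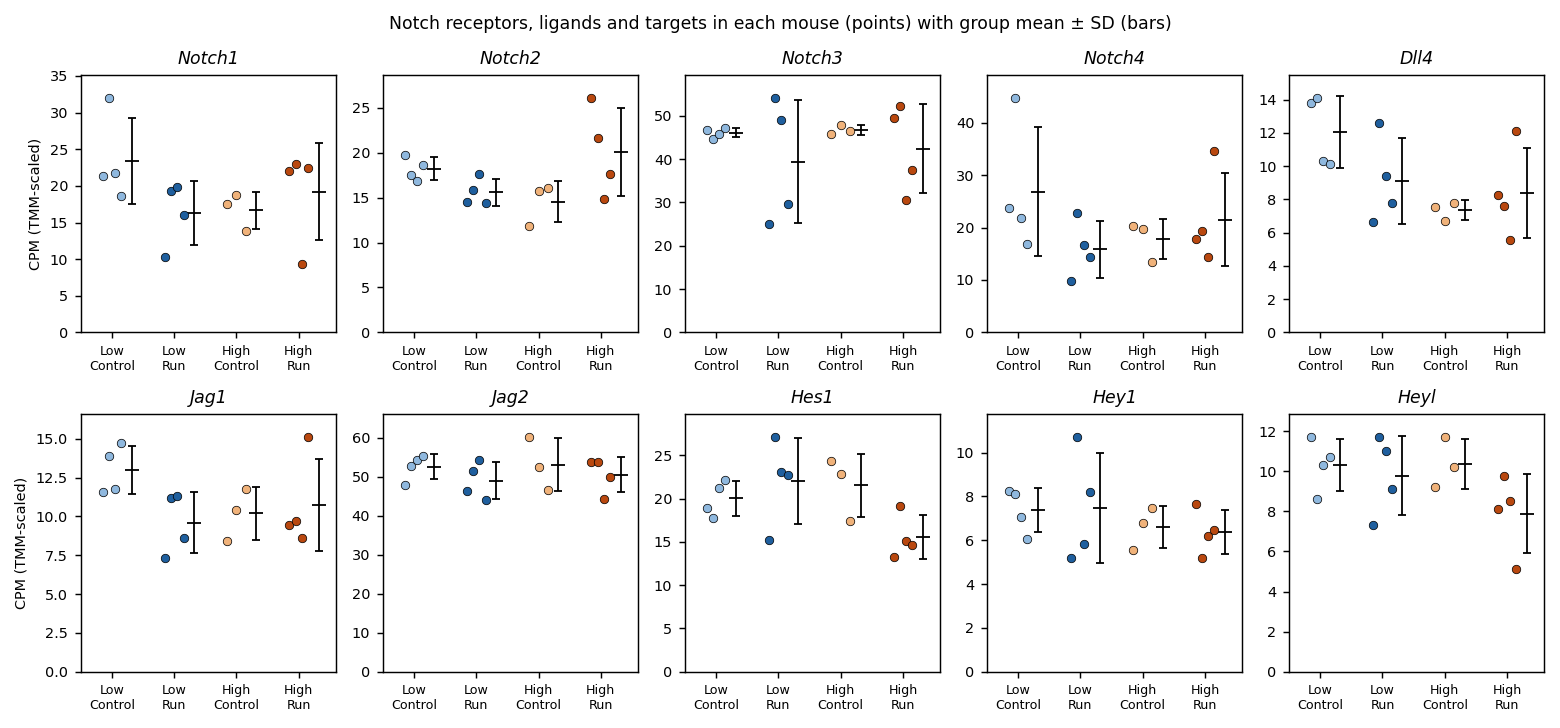
Level of each of the 10 Notch genes in each mouse. The y axis is CPM from 0, points are single mice in the 4 groups, and bars are group mean ± SD. Jag1 in Low Run lies below Low Control without overlap, as do Dll4 and Notch2 in High Control below Low Control, while Notch3 is tight in both control groups (SD 1.11 and 1.03 CPM) and spread in both run groups (SD 14.3 and 10.3 CPM).

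Among the ligands, Dll4 (ENSMUSG00000027314, chromosome 2 from 119325784 to 119335962, plus strand) is the delta-like ligand of arterial and sprouting endothelium. Low Control mice had 13.8, 14.1, 10.3 and 10.1 CPM and High Control mice 7.57, 6.68 and 7.80 CPM. The sedentary groups did not overlap, and the means were 12.1 ± 2.18 CPM (SD, n = 4) and 7.35 ± 0.591 CPM (n = 3). The log2 fold change was -0.72 ± 0.26 (SE, 95% interval -1.26 to -0.17, p = 0.0132, FDR = 0.704), a level 0.609 times that of Low Control, and the exact permutation p was 0.0286, the smallest that 3 against 4 mice can give. It ranged from -0.79 to -0.64 when each mouse was left out in turn and was -0.68 (FDR = 0.707) with length and GC offsets. Run mice had 6.64, 12.6, 9.42 and 7.77 CPM in the Low group and 8.27, 7.58, 5.57 and 12.1 CPM in the High group. The running log2 fold change was -0.40 (-0.90 to 0.09, FDR = 0.422) in Low mice and 0.19 (-0.35 to 0.73, FDR = 0.965) in High mice, the latter -0.05 without D62. Of the 6 genes on an arterial endothelial list, 4 were negative between the sedentary groups with a median of -0.07, and 1, Efnb2 at -0.62, was lower at p under 0.05 (background 4.06%). The 6 genes summed to between 34.6 and 48.1 CPM in Low Control and between 34.6 and 35.6 CPM in High Control. In bulk RNA, fewer endothelial cells and less RNA of a gene per cell cannot be told apart. Exons of Dll4 overlap Gm14207 on the opposite strand over 214 bases.

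Jag1 (ENSMUSG00000027276, chromosome 2 from 137081456 to 137116644, minus strand), a ligand of endothelial, mural and muscle fiber cells, had 11.6, 13.9, 11.8 and 14.7 CPM in Low Control and 7.31, 11.2, 11.3 and 8.62 CPM in Low Run. Every Low Run mouse lay below every Low Control mouse, the nearest pair being 11.6 and 11.3 CPM. The log2 fold change was -0.44 ± 0.20 (SE, 95% interval -0.85 to -0.02, p = 0.0428, FDR = 0.365), a level 0.740 times that of Low Control, with an exact permutation p of 0.0286, the smallest that 4 against 4 mice can give. It ranged from -0.53 to -0.32 when each mouse was left out, and lost its unadjusted p under 0.05 without D9, D98, D57 or D68. The same was so with length and GC offsets, at -0.40 (FDR = 0.432), and by limma voom with quality weights, at -0.32 (FDR = 0.614). High Control mice had 8.42, 10.4 and 11.8 CPM and High Run mice 9.47, 9.70, 8.63 and 15.1 CPM, with D62 the highest of all 15. The High running response was 0.07 (-0.38 to 0.52) and -0.15 without D62. The interaction was 0.51 (-0.11 to 1.12, FDR = 0.608) and the sedentary difference -0.35 (-0.81 to 0.10, FDR = 0.704).

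Jag2 (ENSMUSG00000002799, chromosome 12 from 112907819 to 112929776, minus strand), the other Serrate-type ligand, was the steadiest of the 10 genes, with a 1.37-fold range over the 15 mice and a coefficient of variation of 8.94%. Its means were 52.6 ± 3.33 CPM in Low Control, 49 ± 4.76 CPM in Low Run, 53 ± 6.76 CPM in High Control and 50.4 ± 4.48 CPM in High Run (SD, n = 4, 4, 3 and 4). The 95% intervals of the log2 fold changes were narrow, -0.36 to 0.15 for running in Low mice, -0.35 to 0.20 for running in High mice and -0.26 to 0.29 between sedentary groups. Of these bounds, -0.36 lay farthest from 0.

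Among the targets, Hes1 (ENSMUSG00000022528, chromosome 16 from 30064384 to 30067796, plus strand) is a repressor that many Notch-responsive cells induce, and other pathways induce it too. Low Control mice had 18.9, 17.8, 21.2 and 22.2 CPM and Low Run mice 15.2, 27.1, 23.1 and 22.7 CPM. High Control mice had 24.3, 22.9 and 17.4 CPM and High Run mice 13.3, 19.2, 15.1 and 14.6 CPM. Of the 4 High Run mice, 3 lay below all High Control mice, while D52 lay above D67, so these groups overlapped. The log2 fold change was -0.47 ± 0.19 (SE, 95% interval -0.88 to -0.07, p = 0.0241, FDR = 0.956), with an exact permutation p of 0.0857. It ranged from -0.60 to -0.38 when each mouse was left out, and lost its unadjusted p under 0.05 without D23, D25 or D49. In Low mice the response was 0.14 (-0.24 to 0.51, FDR = 0.717), and the interaction was -0.61 ± 0.26 (-1.16 to -0.06, p = 0.0317, FDR = 0.600), with an exact permutation p of 0.0612. Length and GC offsets gave -0.53 (FDR = 0.698) for the High response and -0.53 (FDR = 0.628) for the interaction, the latter no longer under an unadjusted p of 0.05. Limma voom with quality weights gave -0.33 (FDR = 0.404) and -0.46 (FDR = 0.508), neither under that p.

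Heyl (ENSMUSG00000032744, chromosome 4 from 123233556 to 123249875, plus strand), a repressor of mural and satellite cells, had 11.7, 8.61, 10.3 and 10.7 CPM in Low Control and 7.31, 11.7, 11.0 and 9.12 CPM in Low Run. High Control mice had 9.23, 11.7 and 10.2 CPM and High Run mice 8.11, 9.77, 8.53 and 5.13 CPM. D62 was the lowest of the 15 mice, and D52 lay above D23, so the High groups overlapped. The High running response was -0.40 (-0.85 to 0.05, FDR = 0.956) and -0.25 without D62. Length and GC offsets gave -0.44 (FDR = 0.737), then under an unadjusted p of 0.05, and limma voom with quality weights -0.23 (FDR = 0.539). In Low mice the running response was -0.08 (-0.49 to 0.34) and -0.16 without D9. The interaction was -0.32 (-0.94 to 0.29) and -0.09 without both mice.

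Hey1 (ENSMUSG00000040289, chromosome 3 from 8663359 to 8667256, minus strand), a repressor of arterial endothelium and satellite cells, had the lowest counts of the 10 genes, from 123 to 296 per mouse. Its group means were 7.37 ± 1.02 CPM in Low Control, 7.47 ± 2.50 CPM in Low Run, 6.61 ± 0.967 CPM in High Control and 6.38 ± 1.02 CPM in High Run (SD, n = 4, 4, 3 and 4). The Low Run mice held both the lowest and the highest value, 5.17 CPM in D57 and 10.7 CPM in D61. Running log2 fold changes were 0.02 (-0.44 to 0.48) and -0.05 (-0.55 to 0.44) in Low and High mice, and the sedentary difference was -0.16 (-0.65 to 0.34).

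Low Run vs. Low Control asked how muscle of mice with few frailty markers differed 24 h after running. The 2 of 10 genes with p under 0.05, Notch4 and Jag1, were both lower after running, against 7.52% of all genes lower at this p. Jag1 was also the 1 of 10 without overlap between groups, against a background of 6.93% (3.59% lower). The sign was negative for 8 of 10 genes with a median of -0.22, while over all genes tested 48.1% were negative and the median was 0.02. The 2 positive genes were the targets Hes1 and Hey1. With length and GC offsets both were negative, at -0.01 and -0.06, and Heyl was at -0.03. Notch1, Notch2, Notch3 and Notch4 were then at -0.27, -0.01, -0.09 and -0.60, in place of -0.52, -0.22, -0.23 and -0.75. Dll4, Jag1 and Jag2 were at -0.43, -0.40 and 0.05. D57 and D68 of Low Run were among the 3 mice with the lowest level of long, GC-rich genes (-0.18 and -0.23). Endothelial markers had p under 0.05 for 0 of 10 genes (Pecam1, Cdh5, Kdr, Flt1, Tek, Tie1, Erg, Emcn, Egfl7 and Esam), were negative for 9 of 10 with a median of -0.09, and summed to between 425 and 527 CPM in Low Control and between 331 and 474 CPM in Low Run. The lowest endothelial sum, 331 CPM, was that of D57, which was also lowest for Notch3, Notch4, Jag1 and Hey1. Their part in the result was not tested.

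High Run vs. High Control asked the same of mice with more frailty markers. Notch2 was higher (background 3.28% of all genes higher at p under 0.05) and Hes1 lower (background 1.90% lower), and 0 of 10 genes were without overlap (background 7.07%). Signs were 5 positive and 5 negative, with a median of 0.01 against 0.05 over all genes. All 3 targets were negative, from -0.47 for Hes1 to -0.05 for Hey1, as were Notch3 and Jag2 of the 7 receptors and ligands. Without D9 and D62, Notch4, Dll4 and Jag1 were negative too, at -0.07, -0.05 and -0.15, and by limma voom with quality weights Notch3 and Jag2 were at 0.04 and 0.01 and Jag1 at -0.07. Endothelial markers had p under 0.05 for 0 of 10 genes, were positive for 8 with a median of 0.17, and summed to between 384 and 420 CPM in High Control and between 358 and 484 CPM in High Run. Macrophage genes (Adgre1, Cd68, Csf1r, C1qa, C1qb, Mrc1 and Lyz2) were higher at p under 0.05 for 4 of 7 in High mice (background 3.28%) and 2 of 7 in Low mice (background 5.92%), with sums of 86.8 to 133 CPM in High Control, 114 to 254 CPM in High Run, 97.4 to 188 CPM in Low Control and 169 to 227 CPM in Low Run. The part of these cells in the Notch values was not tested.

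**Figure D3:**
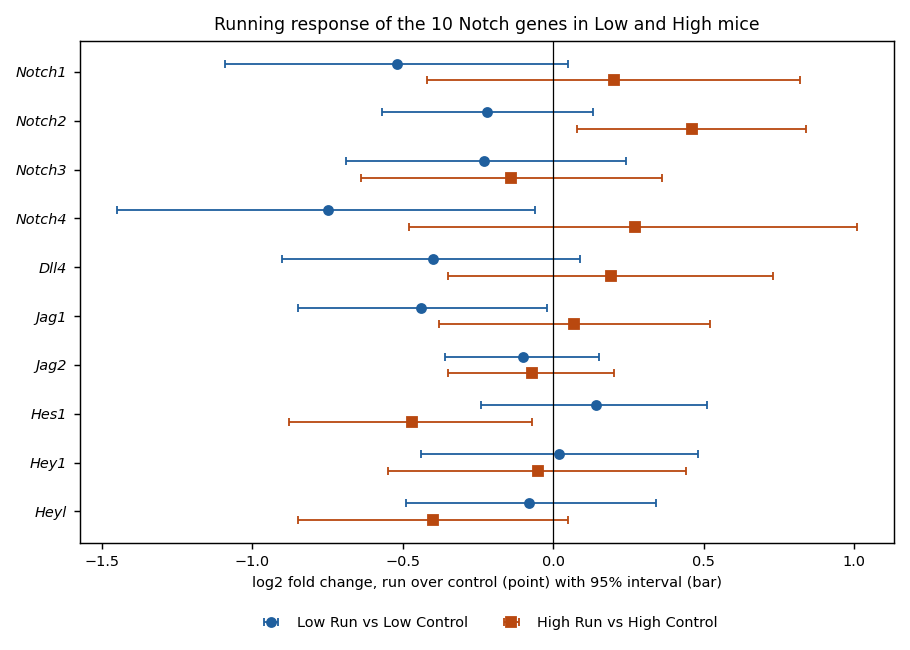
Running response of the 10 Notch genes in Low mice (circles) and High mice (squares). The x axis is the log2 fold change of run over control with its 95% interval from edgeR. The intervals of Notch4 and Jag1 in Low mice, and of Notch2 and Hes1 in High mice, leave out 0, and the 2 responses of Notch2 and of Hes1 lie on opposite sides of 0.

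The Frailty × Run interaction tested whether the running response differed between High and Low mice. Of the 10 genes, Notch2 was higher (background 5.24%) and Hes1 lower (background 2.69%) at p under 0.05. For 5 genes (Notch1, Notch2, Notch4, Dll4 and Jag1) the response was negative in Low and positive in High mice, and Hes1 and Hey1 had the opposite signs. Of these, Notch4, Dll4 and Jag1 were negative in High mice too when D9 and D62 were left out, at -0.07, -0.05 and -0.15. The median interaction was 0.30 against 0.03 over all genes. The 10 endothelial markers also had a median of 0.30, with 0 of 10 at p under 0.05. Without D9 and D62 the interaction was 0.76 for Notch2 and -0.53 for Hes1 (no longer under an unadjusted p of 0.05). It was then 0.45 for Notch1, 0.28 for Dll4 and 0.26 for Jag1, in place of 0.72, 0.59 and 0.51 with all mice. The interaction uses the same mice as the 2 running comparisons and is not separate evidence from them.

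High Control vs. Low Control asked how sedentary muscle differed with frailty. The 1 gene with p under 0.05 was Dll4, lower in High mice (background 4.06% lower). Dll4 and Notch2 were the 2 of 10 without overlap, both lower (background 5.27% lower and 10.4% in either direction). The median over the 10 genes was -0.24 against -0.02 over all genes, with 6 negative. Endothelial sums were 425 to 527 CPM in Low Control and 384 to 420 CPM in High Control, a lower range without overlap, although 0 of the 10 endothelial genes had p under 0.05. The median of those 10 genes was -0.20. This comparison shares the Low Control mice with Low Run vs. Low Control, and the values of the 2 comparisons stand side by side at -0.40 and -0.72 for Dll4, -0.44 and -0.35 for Jag1, -0.75 and -0.58 for Notch4, -0.52 and -0.49 for Notch1 and -0.22 and -0.32 for Notch2. The running effect averaged over both frailty groups ran from -0.24 for Notch4 and Heyl to 0.12 for Notch2, and its 95% intervals all held 0. For Jag1 it was -0.18, and -0.28 (FDR = 0.505) without D9 and D62, then under an unadjusted p of 0.05.

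Variation between mice within groups was as large as the differences between groups for several members. D9 was the highest of 15 mice for Notch1, Notch4 and Dll4, and D62 was the highest for Jag1 and second to D9 for Notch4. D57 was lowest or second lowest for Notch1, Notch3, Notch4, Dll4 and Jag1. Endothelial sums were likewise highest in D9 (527 CPM) and D62 (484 CPM) and lowest in D57 (331 CPM) and D53 (358 CPM). Satellite cell markers (Pax7, Myf5, Calcr, Cdh15, Chrdl2, Msc, Fgfr4 and Sdc4) summed to 212 CPM in D9 and 162 CPM in D62 against 68.4 to 112 CPM in the other 13, a sum made up mostly of Sdc4 and Cdh15. Mural markers (Pdgfrb, Rgs5, Cspg4, Mcam, Kcnj8, Abcc9, Myh11, Acta2, Tagln and Cnn1) summed to between 687 and 876 CPM in all 15 mice. That sum was made up mostly of Rgs5 (mean 294 CPM) and Abcc9 (mean 237 CPM). Of the 10, 0 had p under 0.05 in any comparison (background 5.18% to 13.4%). Each endothelial, mural and satellite cell marker had counts above 0 in all 15 mice, the lowest being 3 counts for Calcr. Of the 8 satellite cell markers, 1 had p under 0.05 between the sedentary groups (background 5.86%). It was Calcr, higher in High Control at a log2 fold change of 1.45, with a mean of 0.339 CPM and 3 to 17 counts per mouse. In each other comparison 0 of 8 had p under 0.05.

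**Figure D4:**
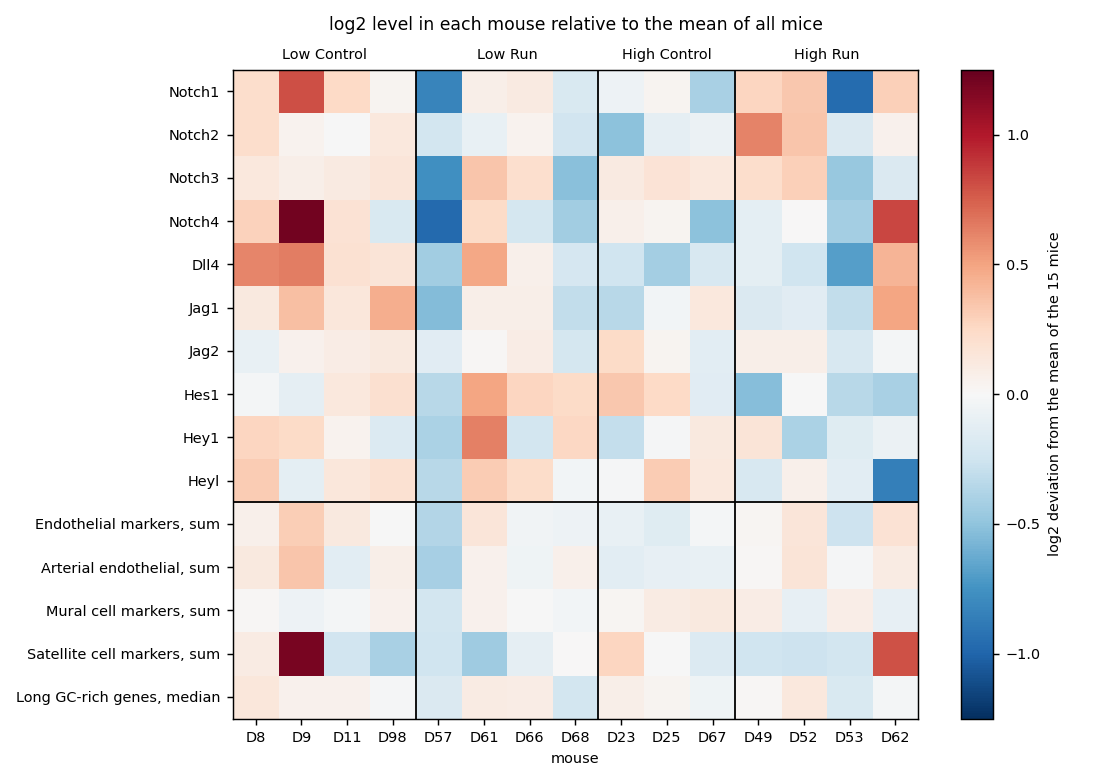
Deviation of each mouse from the mean of 15 mice on the log2 scale, for the 10 Notch genes and, below the line, for summed CPM of cell type markers and the median of 615 long, GC-rich genes. Red is above and blue below the mean. D9 and D62 are red for Notch4, Dll4, Jag1 and satellite cell markers, and D57 is blue for all 10 Notch genes and for the endothelial sum.

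The other genes of the pathway were taken from a list of 50, of which 45 were tested. The 5 not tested for low counts were Dll3, Dlk2, Dner, Hes2 and Hes5. In Low Run vs. Low Control, 0 of 45 were higher and 4 were lower at p under 0.05, a number near the background of 7.52% of all genes lower. Spen, a corepressor of RBPJ, had 69.0 ± 33.3 CPM in Low Control and 34.9 ± 12.2 CPM in Low Run (log2 fold change -0.98 ± 0.37 SE, FDR = 0.358). Ep300, an acetyltransferase coactivator, had -0.54 (FDR = 0.358), Furin, the protease that cuts the receptor on its way to the surface, -0.75 (FDR = 0.358), and Itch, a ubiquitin ligase that limits receptor level, -0.52 (FDR = 0.359). In Low Control, D9 had the highest sum of the nuclear genes of the list, among them Spen and Ep300 (824 against 532 to 593 CPM). The same was so for the cleavage genes with Furin (434 against 251 to 288 CPM) and the inhibitors with Itch (201 against 143 to 164 CPM). The differences of these 4 genes were not examined without D9. Of the 45 genes 31 were negative, with a median of -0.16, against 48.1% negative and a median of 0.02 over all genes.

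In High Run vs. High Control, 0 of 45 were higher and 2 lower at p under 0.05 (background 1.90% lower), and 31 were positive with a median of 0.07 against 0.05 over all genes. Of the lower genes Mib1, the ubiquitin ligase that drives ligand endocytosis, had 254 ± 48.6 CPM in High Control and 142 ± 79.9 CPM in High Run (-0.84 ± 0.36 SE, FDR = 0.956). D62 had the lowest High Run sum of the ligand endocytosis genes with Mib1 (223 against 331 to 496 CPM). The difference of Mib1 was not examined without D62. For the interaction 2 of 45 were higher and 0 lower, near the background of 5.24% higher, with Spen at 1.46 and Rbpj at 0.51 (FDR = 0.600 each), and 31 were positive with a median of 0.25 against 0.03 over all genes. The values of Spen and Rbpj were not examined without D9 either.

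Between the sedentary groups 0 of 45 were higher and 2 lower in High Control, near the background of 4.06% lower. Rbpj, the DNA-binding partner of all 4 receptors, had 24.8 ± 5.67 CPM in Low Control and 18.9 ± 1.46 CPM in High Control (-0.39 ± 0.17 SE, FDR = 0.704). Spen had 69.0 ± 33.3 and 33.4 ± 8.98 CPM (-1.04 ± 0.40 SE, FDR = 0.704). Neither difference was examined without D9, the mouse with the highest nuclear gene sum in Low Control. By edgeR 0 of the 45 genes passed an FDR of 0.1 in any comparison, and 0 of 45 had p under 0.05 for running averaged over both groups. The other targets tested had no unadjusted p under 0.05 in any comparison, with mean levels of 12.4 CPM for Myc, 10.1 CPM for Hes6, 6.19 CPM for Nrarp and 0.817 CPM for Hey2.

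**Figure D5:**
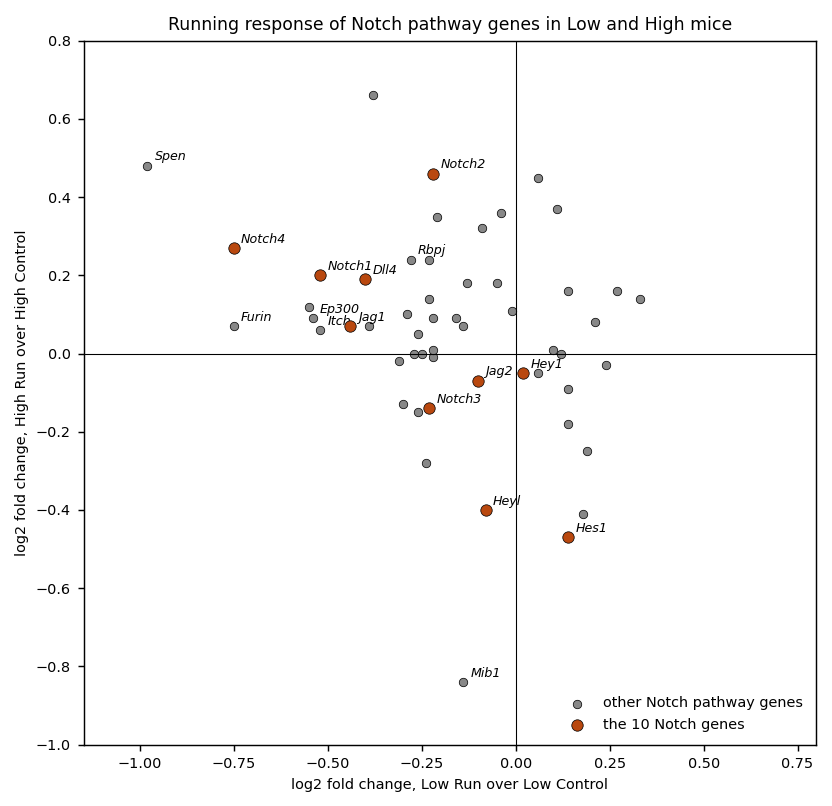
Running response in Low mice (x axis) and High mice (y axis), both as log2 fold changes of run over control, for the 10 Notch genes (large points) and other pathway genes (small points). Named small points had p under 0.05 in a comparison, and Spen (-0.98 and 0.48) and Mib1 (-0.14 and -0.84) lie farthest out.

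Likeness between genes was described by Pearson's r of log2 CPM over the 15 mice, among all genes tested. The points share libraries, and r follows D9, D62 and D57 where a gene deviates in them. Within the pathway, Notch1 and Notch4 had r = 0.82, Notch4 and Dll4 0.75, Dll4 and Jag1 0.75, and Hes1 and Heyl 0.70. Many genes were closer to a receptor than any other member was. The 3 genes most like Notch1 were Polg, Flii and Mtor (0.95 each), those most like Notch3 were Mink1, Fbf1 and Ints1 (0.94 each), and those most like Notch4 were Elac2 (0.95), Trpc4ap and Zfp408 (0.94 each). For Notch2 they were Utrn (0.87), Atp2b2 (0.84) and Fry (0.82). Dll4 was most like Smyd4 (0.87), the arterial gene Efnb2 (0.87) and Paxip1 (0.86), and Jag1 most like Fam126b (0.89), AW549877 and Lin7c (0.88 each). For Jag2 they were Gm37963 (0.87), ENSMUSG00000118623 and Gm7265 (0.84 each), all under 1 CPM on average. Among targets, Hes1 was most like Tob1 (0.80), Chst2 (0.79) and E130218I03Rik (0.77), Hey1 most like Ptger4 (0.82), Baz1a (0.75) and Slc16a12 (0.74), and Heyl most like Ldhd (0.89), Mylk4 and Chpt1 (0.88 each).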

How the data were processed

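Gastrocnemius RNA of 15 mice (4 Low Control, 4 Low Run, 3 High Control, 4 High Run) was analyzed. Per the methods, the authors used STAR 2.7.9a with build mm10 and featureCounts on read pairs aligned to 1 place and to the strand of each nuclear Ensembl gene (Subread 2.0.3 in the submitters' processing notes, another version in the methods), and deposited raw counts per gene. They also deposited a variance-stabilizing transformation of these counts by DESeq2, on a scale near log2. Values per mouse are CPM scaled by trimmed mean of M-values (TMM) factors, and RPKM divides CPM by the merged exon length in GENCODE M21.

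Counts were filtered by filterByExpr and tested in R 4.3.3 with edgeR 4.0.16 (quasi-likelihood F-test, 1 mean per group, all 15 mice) and Benjamini-Hochberg adjustment over all 16920 genes, at an FDR of 0.1. Group values were also compared by two-sided exact permutation of log2(CPM + 0.5), with 70 arrangements of 4 against 4 mice, 35 of 3 against 4 and 2450 for the interaction. The methods were tested on simulated data. Alternatives were DESeq2 1.42.0, RLE normalization, other count filters, limma 3.58.1 (voom with quality weights, or the deposited log2 values), length and GC offsets, a fit to only the 2 groups compared and each mouse left out. Leaving out D9 and D62 together was added after seeing the data. The 10 genes and all lists were chosen with earlier results of these data known. All 10 were tested in every comparison, but not every estimate is printed. Other pathway genes are named where p was under 0.05 (at most 6 per comparison), as are the 3 genes most like each member. The result of 1 other pathway gene is not reported here.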

Additional observations from a re-analysis of the deposited data

Results flagged for a closer look

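One value of the 10 genes stood far from the others of its group. Notch1 was at 9.37 CPM in mouse D53, against 22 to 23 CPM in the other 3 High Run mice. The gap to its nearest neighbor took 0.948 of the range of the group, past Dixon's 95% limit for 4 mice. With 30 groups of 4 mice examined, about 1 in 20 is flagged by chance. D53 was also the lowest of the High Run mice for Notch2, Notch3, Notch4, Dll4, Jag1 and Jag2 and had the lowest endothelial sum of that group (358 CPM). Its median level of long, GC-rich genes was low too, at -0.194 on the log2 scale. For Notch1 in D53, the deviation fitted from gene length and GC content was -0.39, beside a deviation of -0.96. The part of either feature in the Notch1 value was not tested. Without D53 the running response of Notch1 in High mice was 0.43 on the log2 scale in place of 0.20.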

How the results depend on the processing

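None of the 10 genes passed an FDR of 0.1 under any alternative run, and the lowest FDR was 0.143, for Notch2 in High Run vs. High Control by limma voom with quality weights. The number of all genes past it was 0 by edgeR and rose to 9 by DESeq2 and 86 without the count filter for Low Run vs. Low Control, to 15, 19 and, by voom, 45 for High Run vs. High Control, to 4 without the filter for the interaction, and to 105 by DESeq2 and 81 without the filter for the averaged effect. The cause was not tested. Of the 10 genes, the number with an unadjusted p under 0.05 ran from 0 to 3, 1 to 3, 0 to 4, 1 to 2 and 0 to 1 in the 5 comparisons in the order of the report over the alternatives with all mice or without D9 and D62. Signs turned for several genes. The largest of their edgeR values with all mice were 0.27 for Notch4 and 0.19 for Dll4, both in High Run vs. High Control. In Low Run vs. Low Control Hey1 was -0.03 on the deposited log2 values, and length and GC offsets gave 0.05 for Jag2, -0.01 for Hes1 and -0.06 for Hey1. In High Run vs. High Control voom gave 0.04 for Notch3, -0.07 for Jag1 and 0.01 for Jag2, and leaving out D9 and D62 gave -0.07 for Notch4, -0.05 for Dll4 and -0.15 for Jag1. Offsets gave an interaction of -0.11 for Notch3 and -0.13 for Jag2. Between sedentary groups voom gave -0.02 for Jag2 and -0.04 for Heyl, and leaving out D9 and D62 gave 0.00 for Notch3 and -0.07 for Heyl. The averaged effect of Notch1 was 0.04 by voom. Leaving out 1 mouse at a time gave 520 log2 fold changes, of which 32 changed sign. They ranged from -0.21 to 0.16 for Hey1 and -0.18 to 0.04 for Heyl in the Low response, and in the High response from -0.07 to 0.42 for Notch4, -0.05 to 0.34 for Dll4, -0.15 to 0.19 for Jag1, -0.16 to 0.03 for Jag2 and -0.16 to 0.04 for Hey1. Ranges were -0.08 to 0.28 for Notch3, -0.05 to 0.13 for Jag2 and -0.21 to 0.16 for Hey1 in the interaction, 0.00 to 0.03 for Notch3, -0.09 to 0.10 for Jag2 and -0.08 to 0.09 for Heyl between sedentary groups, and -0.14 to 0.06 for Hey1 in the averaged effect. With library totals in place of TMM, Notch3 was at 44.7 CPM in Low Control and 45.1 CPM in High Control. No paired analysis was possible because each mouse belongs to 1 group and the labels share no replicate number. Counts were 123 to 1585 per gene and mouse, and same-group mice differed beyond sampling noise, so 3 or 4 mice per group limit the precision more than depth does.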

Other observations

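Markers of 2 further kinds of resident cells were also measured. Adipocyte genes (Adipoq, Plin1, Cfd, Lep and Cidec) were negative for 5 of 5 after running in both frailty groups, against 48.1% of all genes in Low and 42.8% in High mice, with medians of -0.57 in Low and -0.44 in High mice. In Low mice 2 of 5 were lower at p under 0.05, against 7.52% of all genes, and in High mice 0 of 5, against 1.90%. Fibro-adipogenic genes (Pdgfra, Dcn, Lum, Col1a1, Col3a1, Dpt and Gsn) had p under 0.05 for 0 of 7 in any comparison. No gene of these lists passed an FDR of 0.1 by edgeR.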
